A study of Mus musculus with 3 samples.

Results

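The cells described here are CD8 T cells of the irradiated mouse lung that carry effector genes. They were chosen cell by cell as those with at least 1 of Cd3e, Cd3g and Cd3d above 0, with Cd8a or Cd8b1 above 0, with at least 2 of the 5 effector genes Ccl5, Nkg7, Gzmk, Klrk1 and Cxcr6 above 0, and with none of Trdc, Cd163l1, Cd79a and C1qa above 0. The rule selected 628 of 19622 cells, of which 181 came from CONV, 223 from CONV AsiDNA and 224 from FLASH. Since measured values chose these cells, the genes of the rule are given as a description.

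Each library came from the dissociated lung of 1 female wild-type C57BL6/J mouse taken 5 months after 13 Gy to the thorax, in a mouse model of radiation-induced lung fibrosis. CONV stands for conventional dose rate irradiation and FLASH for irradiation at ultra-high dose rate. CONV AsiDNA stands for conventional irradiation with AsiDNA, a double-stranded DNA molecule that mimics a DNA break, injected intraperitoneally at 100 mg/kg on 2 days and at 200 mg/kg on the day of irradiation. All mice were irradiated, and the control libraries were not analysed here, so no value below says how an irradiated lung differed from an untreated one. With 1 mouse per group no test between groups was possible, and each difference is a difference between 3 libraries in which treatment, mouse and library cannot be told apart.

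CD8 T cells recognise peptides on MHC class I and kill through granules that hold perforin and granzymes. Naive and central memory cells express Ccr7, which directs them into lymph nodes, together with the transcription factors Lef1 and Tcf7, and they leave lymphoid tissue through the sphingosine-1-phosphate receptor S1pr1. The transcription factor Klf2 drives S1pr1. Effector memory cells have lost Ccr7 and circulate, whereas resident memory cells stay in tissues such as the lung and often carry the collagen-binding integrin Itga1 (CD49a) or the E-cadherin receptor chain Itgae (CD103).

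The values are adjusted counts, whole numbers recovered from the deposited natural log values, and a gene was called present in a cell when its value was above 0. A share of cells is given with its exact binomial 95% interval, which covers the sampling of cells only and not the spread between mice. The median total per member was 3331 (CONV), 3593 (CONV AsiDNA) and 3542.5 (FLASH) adjusted counts, over a median of 1104, 1181 and 1184 genes above 0. A level is the adjusted CPM, a gene's part of the summed adjusted counts of the members of a library written as CPM, and log2 ratios had 10 added to each level, so that differences of low genes are understated.

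Members made up 2.84% of cells in CONV (95% interval 2.45 to 3.28), 3.19% for CONV AsiDNA (2.79 to 3.63) and 3.57% for FLASH (3.13 to 4.06). The order of the libraries depended on the rule, since with 3 or more effector genes the shares were 2.09%, 1.95% and 2.36%. Among CD8 T cells without the excluded genes, members made up 46.9% of 386 in CONV (41.8 to 52.0), 63.2% of 353 for CONV AsiDNA (57.9 to 68.2) and 47.5% of 472 for FLASH (42.9 to 52.1). CONV AsiDNA was therefore high on this denominator, with an interval that did not overlap those of the other libraries. With 3 or more effector genes the cells were 133 of 386, 136 of 353 and 148 of 472, so that the gap was narrower there. CD8 T cells with no effector gene were 26.4% in CONV (22.1 to 31.1), 37 of 353 cells for CONV AsiDNA (interval 7.49% to 14.2%) and 20.3% for FLASH (16.8 to 24.3), so that CONV AsiDNA was low there. Those with exactly 2 effector genes were 24.6% of CD8 T cells in CONV AsiDNA, 12.4% in CONV and 16.1% for FLASH. CD8 T cells with 3 effector genes were 21.2%, 22.7% and 22% in CONV, CONV AsiDNA and FLASH. Those with 4 were 10.4% (7.51 to 13.8), 14.4% (10.9 to 18.6) and 8.05% (5.76 to 10.9), where CONV AsiDNA was again the highest, with an interval apart from that of FLASH but not from that of CONV. Those with all 5 were 2.85%, 1.42% and 1.27%, highest in CONV, with overlapping intervals.

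**Figure D1:**
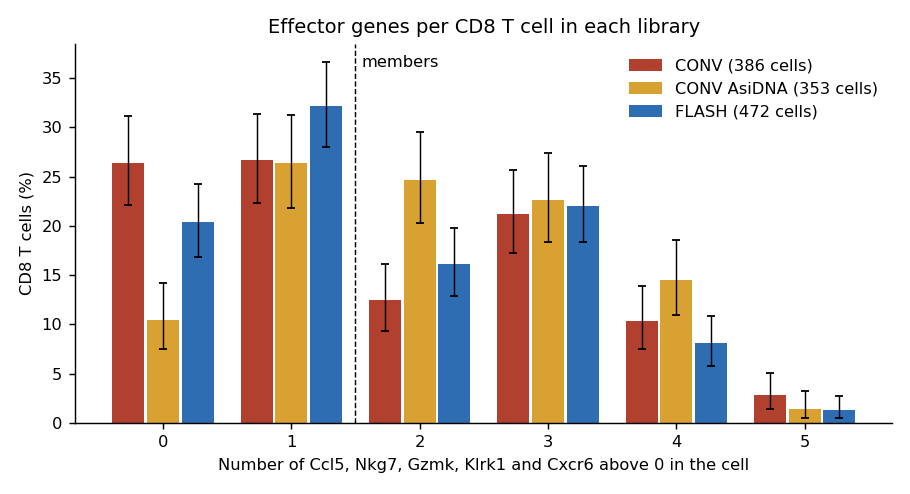
Share of CD8 T cells (y axis, percent) by the number of the 5 effector genes above 0 (x axis) in CONV, CONV AsiDNA and FLASH, with bars for exact 95% intervals over cells. Cells to the right of the dashed line are members, and CONV AsiDNA is low at 0 effector genes (37 of 353 cells) and high at 2 (24.6%).

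At the edge of the rule, the CD8 T cells with exactly 1 effector gene nearly all held Nkg7 as that gene, at 92.2%, 83.9% and 92.8% in the order CONV, CONV AsiDNA, FLASH used throughout. Ccr7 was above 0 in 82.5%, 78.5% and 92.1% of them. Members with exactly 2 effector genes held Ccl5 in 83.3%, 80.5% and 73.7% and Ccr7 in 29.2%, 65.5% and 59.2%. The step from 1 to 2 effector genes was thus mostly the presence of Ccl5, a chemokine stored by memory CD8 T cells, and in CONV AsiDNA and FLASH more than 50% of the cells just inside the rule still carried Ccr7.

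The markers of CD8 T cells and the effector genes belong to the rule and check nothing, so they are given as a description. Cd8b1, the CD8 beta chain, was above 0 in 94.5% of the CONV members, 95.5% for CONV AsiDNA and 97.8% for FLASH. Ccl5 was above 0 in 94.5%, 90.6% and 90.6%, with a median of 35, 49.5 and 60 adjusted counts in the cells that held it and a highest value of 527. Nkg7, a granule membrane protein, was present in 180 of 181, 223 of 223 and 223 of 224 members. B cells of the same libraries, with median totals of 2830, 2964 and 3044 adjusted counts, held Ccl5 in 0%, 0% and 0.259%. Among T cell genes the rule did not use, Trac, the alpha chain constant gene, was above 0 in 78.5%, 87.9% and 82.1% of members and Trbc2, a beta chain constant gene, in 95%, 95.5% and 96.0%, while Cd4 was above 0 in 1.66%, 2.24% and 0.446%. In the marker lists that follow, Trdc, Cd163l1, Cd79a and C1qa are at 0 by the rule. All 9 macrophage and monocyte, 4 neutrophil, 6 epithelial, 5 fibroblast and 3 red blood cell markers were listed at 0 in members of every library. Of 7 NK cell markers, 4, 5 and 2 were listed at 0 in members, among them Tyrobp and Fcer1g in every library, and the list summed to 323, 240 and 420 adjusted CPM, of which Eomes gave 302, 227 and 368. The 5 CD4 T cell markers summed to 579.5, 340 and 274 adjusted CPM, highest in CONV, with Foxp3 listed at 0 and most of the sum from Ctla4 and Icos. The 5 gamma delta T cell markers, 3 of them listed at 0 in each library, summed to 130, 155 and 81.2, and the 5 ILC2 markers, with 3, 2 and 3 listed at 0, to 108, 130 and 85.0. The 7 B cell markers, with 7, 5 and 3 listed at 0, summed to 0, 26.5 and 15.5. The part of these marker genes in the results below was not tested.

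The name effector memory was borne out only in part. Ccr7 was above 0 in 20 of 181 members in CONV, in 80 of 223 for CONV AsiDNA and in 80 of 224 for FLASH. At least 1 of Ccr7 and Lef1 was present in 34.8% of CONV members (interval 27.9 to 42.2), 57.8% of CONV AsiDNA members (51.1 to 64.4) and 54.9% of FLASH members (48.1 to 61.5). Cd44, the surface protein usually used to define memory cells, was above 0 in 1.1%, 0.897% and 0.893% of members but in 36.3%, 30.8% and 21.4% of gamma delta T cells. It was near 0 in B cells too (0%, 0% and 0.345%). In CONV and CONV AsiDNA it was also low in NK cells (0% and 0.79%) and in CD4 T cells (5.84% and 2.44%). In FLASH, 12.1% of NK cells and 19.7% of CD4 T cells held it, so it was not low in all lymphocytes outside the members there. Its low share in members is not read for or against the name, and the part of any removal of background in it was not tested. The cells are therefore called Ccl5 Nkg7 CD8 T cells below.

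Genes were compared between a pair of libraries when they summed to 20 or more adjusted counts over all members and were above 0 in both. In CONV against CONV AsiDNA, 238 of 6492 genes (3.67%) were at least 2-fold higher and 146 (2.25%) at least 2-fold lower, with a median log2 ratio of 0.07. The surplus of higher genes in this pair depended on the processing, since the counts were 184 and 186 with scaling by the median gene ratio, 200 and 212 in members with 3 or more effector genes, and 179 and 293 in members with neither Ccr7 nor Lef1. In CONV against FLASH, 218 of 6489 genes (3.36%) were at least 2-fold higher and 196 (3.02%) at least 2-fold lower, with a median of 0.03. Between CONV AsiDNA and FLASH only 66 of 6505 genes (1.01%) were at least 2-fold higher and 116 (1.78%) at least 2-fold lower in CONV AsiDNA. Each pair of comparisons shares a library.

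Some genes were near 0 in the members of whole libraries. The mitochondrial gene mt-Co2, which counts among the genes lower in CONV and in CONV AsiDNA than in FLASH, was above 0 in 0.552%, 0.448% and 83.9% of members. Gm42418, an RNA that overlaps ribosomal repeats, was above 0 in 98.3% of members in CONV and 99.1% for CONV AsiDNA but was listed at 0 for FLASH, where B cells held it in 0.345%, and so enters no count against FLASH. The mitochondrial share of adjusted counts in members was 0.299% in CONV, 0.0859% for CONV AsiDNA and 1.64% for FLASH. Any removal of background in a library, as far as it set genes to 0, cannot be told apart from a difference between mice. Libraries shared between 9 and 17 cell barcodes in pairs, few against the 6267 to 6983 cells per library.

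The naive and central memory genes were the list with the widest difference below CONV AsiDNA and FLASH. All 17 genes considered were measured. In CONV against CONV AsiDNA, 3 were at least 2-fold lower, against 2.25% of all genes, and none higher, 15 of 17 ratios lay below 0, and the median was -0.56 against 0.07 over all genes. In CONV against FLASH, 4 were at least 2-fold lower, against 3.02% of all genes, and none higher, 15 of 17 lay below 0, and the median was -0.61 against 0.03. Between CONV AsiDNA and FLASH none of the 17 reached 2-fold, with a median of -0.05.

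Klf2 had the widest gap in share of cells on this list. It was above 0 in 50 of 181 members in CONV (27.6%, interval 21.2 to 34.8), in 162 of 223 for CONV AsiDNA (72.7%, 66.3 to 78.4) and in 154 of 224 for FLASH (68.8%, 62.2 to 74.8). Thinned to 1000 adjusted counts per cell, which no member fell short of, the shares were 18.1%, 53.8% and 51.8%. CONV stood low and the other libraries overlapped. The level was 374, 1249 and 1364 adjusted CPM, which gave log2 ratios of -1.71 to CONV AsiDNA and -1.84 to FLASH. These ratios stayed between -2.01 and -1.62 under every alternative run.

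Klf2 lies at chr8:72319033-72321656 on the plus strand of GRCm38. The promoter shown here is the stretch before its start, given because of that gap. It is chr8:72318812-72319031 of GRCm38.p6, plus strand, read from RefSeq, and the capitals mark its single match to the MEF2 consensus. MEF2 factors are known activators of Klf2 in other cells.
Klf2: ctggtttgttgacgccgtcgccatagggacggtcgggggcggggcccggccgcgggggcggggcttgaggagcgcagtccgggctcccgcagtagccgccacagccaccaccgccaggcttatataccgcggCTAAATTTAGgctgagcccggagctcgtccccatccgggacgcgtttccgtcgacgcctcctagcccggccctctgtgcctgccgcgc
The MEF2 consensus, which reads the same on both strands, was found in 2.6% of 32851 promoter stretches of 220 bases. A match in letters is no evidence of binding in these cells.

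S1pr1, the egress receptor, was above 0 in 29.8% of the CONV members (23.3 to 37.1), 54.7% for CONV AsiDNA (47.9 to 61.4) and 51.8% for FLASH (45.0 to 58.5). Its log2 ratios of -0.96 and -0.98 fell just short of 2-fold. Ccr7 was above 0 in 11.1%, 35.9% and 35.7% of members, at 65.7, 310 and 344 adjusted CPM, while NK cells, which lack Ccr7, held it in 0%, 0.395% and 0%. The log2 ratio of Ccr7 was -2.08 for CONV against CONV AsiDNA and -2.23 against FLASH. Lef1 was above 0 in 30.4%, 49.3% and 46.9%, against 0%, 1.63% and 0.0864% of B cells. Dapl1, a gene of quiescent T cells, was present in 3.31%, 16.6% and 12.1%, with log2 ratios of -2.21 and -2.60. For each of these genes CONV stood apart from the other libraries, whose intervals overlapped.

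Not all genes of the list followed. Il7r, the interleukin 7 receptor, was above 0 in 68.5% of the CONV members, 61.4% for CONV AsiDNA and 68.3% for FLASH. Cd28, the co-stimulatory receptor, was above 0 in 73.5%, 82.1% and 78.1%, with log2 ratios of 0.13 and 0.12 for CONV against the other libraries. Bcl2, which protects memory cells from death, was above 0 in 57.5%, 65.0% and 69.2%.

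Of the tissue residency list, 12 of 15 genes were measured, and the list includes Cxcr6, a gene of the rule. In CONV against CONV AsiDNA, 5 were at least 2-fold higher, against 3.67% of all genes, none was 2-fold lower, 11 of 12 ratios lay above 0 and the median was 0.82 against 0.07 over all genes. In CONV against FLASH the counts were the same, with 5 genes at least 2-fold higher against 3.36% of all genes, 11 of 12 above 0 and a median of 0.83 against 0.03. Between CONV AsiDNA and FLASH, Itga1 was at least 2-fold higher, against 1.01% of all genes, and Bhlhe40 at least 2-fold lower, against 1.78%. The median was 0.07.

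Itga1 was the gene of the list with the widest ratio to FLASH. It was above 0 in 38 of 181 members in CONV (21.0%, interval 15.3 to 27.7), in 12 of 223 for CONV AsiDNA (5.38%, 2.81 to 9.21) and in 2 of 224 for FLASH (0.893%, 0.108 to 3.19). Thinned to 1000 adjusted counts the shares were 9.91%, 1.94% and 0.301%, and B cells held Itga1 in 0% in every library. CONV was high, and the intervals of CONV AsiDNA and FLASH overlapped. The level was 121, 21.5 and 2.58 adjusted CPM, which gave log2 ratios of 2.06 to CONV AsiDNA and 3.38 to FLASH.

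Itga1 lies at chr13:114953096-115101964 on the minus strand of GRCm38. Its promoter stretch, chr13:115101995-115102214 of GRCm38.p6, minus strand, from RefSeq, is shown as the counterpart of that of Klf2, and the capitals mark CACCC or its reverse complement GGGTG, the core of the box that KLF factors bind.
Itga1: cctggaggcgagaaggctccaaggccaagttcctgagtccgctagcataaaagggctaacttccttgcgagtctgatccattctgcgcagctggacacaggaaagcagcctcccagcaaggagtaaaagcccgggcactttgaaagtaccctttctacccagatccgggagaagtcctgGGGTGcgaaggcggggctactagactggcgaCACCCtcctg
It holds 2 matches, and 47.8% of the 32851 stretches hold at least 1. No MEF2 match was found in this stretch.

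Itgae was present in 12, 2 and 2 members of CONV, CONV AsiDNA and FLASH (6.63%, 0.897% and 0.893%). Bhlhe40, a transcription factor that supports resident memory cells, was above 0 in 34.8% of the CONV members (27.9 to 42.2), 6.73% for CONV AsiDNA (3.81 to 10.8) and 21.0% for FLASH (15.8 to 26.9). Thinned, these were 15.2%, 2.94% and 9.69%. Here the 3 intervals did not overlap and CONV AsiDNA was the low library, with a log2 ratio of 2.04 for CONV against CONV AsiDNA and -1.46 for CONV AsiDNA against FLASH. Rgs1, a brake on chemokine receptor signalling, was above 0 in 47.5%, 29.6% and 35.3% of members. Cd69, which holds S1pr1 inside the cell, was above 0 in 74.6%, 68.2% and 66.5%, and its intervals overlapped in all 3 libraries. At least 1 of Itgae, Itga1 and Zfp683 was present in 24.3% of CONV members (18.2 to 31.2), 6.73% of CONV AsiDNA members (3.81 to 10.9) and 1.79% of FLASH members (0.489 to 4.51).

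**Figure D2:**
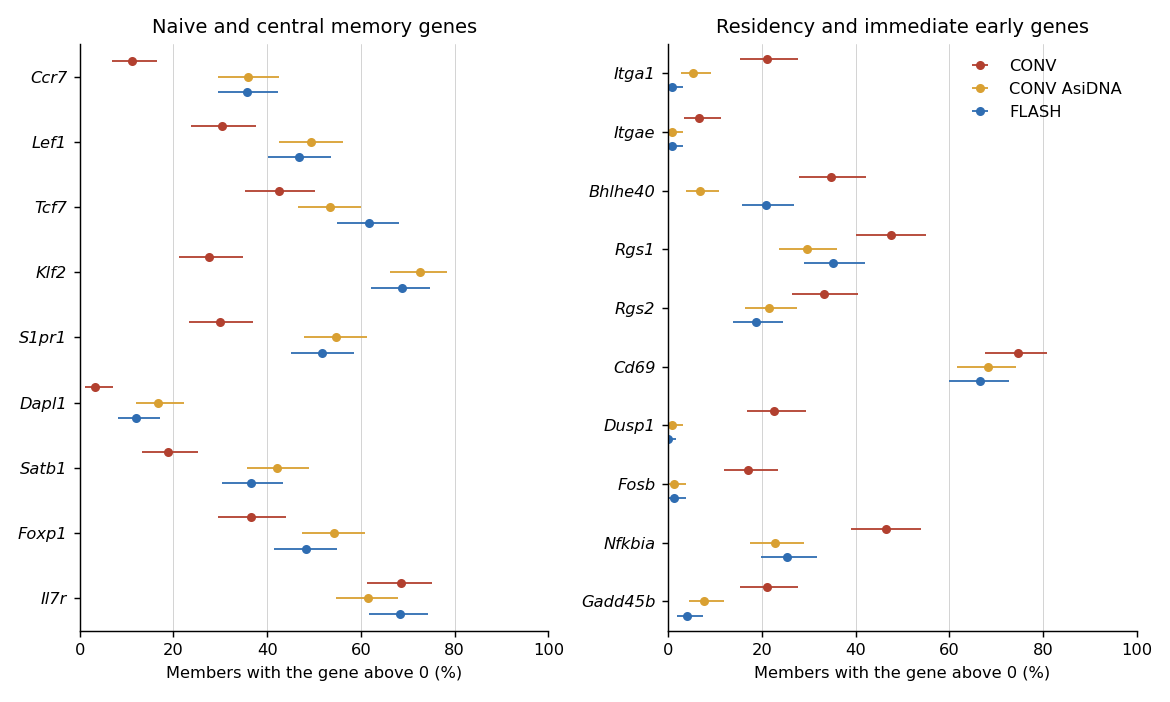
Share of members with each gene above 0 (x axis, percent) in CONV, CONV AsiDNA and FLASH, as points with exact 95% intervals over cells. CONV lies to the left for Klf2 (27.6% against 72.7% and 68.8%) and to the right for Itga1 (21.0% against 5.38% and 0.893%).

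Immediate early genes, which respond within minutes to activation and also to tissue dissociation, were also counted. Of the list, 9 of 15 genes were measured. In CONV against CONV AsiDNA, 4 of 9 were at least 2-fold higher, against 3.67% of all genes, and none lower, with a median of 0.79 against 0.07. In CONV against FLASH 2 of 8 were at least 2-fold higher, against 3.36%, and none lower, with a median of 0.59 against 0.03. The other genes compared did not reach 2-fold in these pairs. In CONV AsiDNA against FLASH 1 of 8, Fos, was at least 2-fold lower, against 1.78% of all genes, and none higher. The median there was -0.14 against -0.02. Fos was also among the 4 genes higher in CONV than in CONV AsiDNA. Fosb, an AP-1 subunit, was above 0 in 17.1% of the CONV members, 1.34% for CONV AsiDNA and 1.34% for FLASH. Dusp1, a phosphatase of MAP kinases, was listed at 0 in FLASH members and above 0 in 22.6% of those of CONV and 0.897% of those of CONV AsiDNA. Nfkbia, the inhibitor of NF-kappaB, was above 0 in 46.4%, 22.9% and 25.4%, with log2 ratios of 1.35 and 1.37. Junb, another AP-1 subunit, had its lowest share in CONV, at 71.8%, 76.7% and 81.2%. Whether dissociation had a part in the differences of CONV was not tested.

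The granule genes, among them Nkg7 and Gzmk of the rule, went both ways, with 7 ratios above 0 and 5 below for CONV against CONV AsiDNA. Of 12 measured genes of 14, only Serpinb9 was at least 2-fold higher in that pair, against 3.67% of all genes. Only Gzmm was at least 2-fold lower, against 2.25%. Gzma and Serpinb9 were at least 2-fold higher in CONV than in FLASH, where 3.36% of all genes were. Gzma was at least 2-fold higher in CONV AsiDNA than in FLASH, where 1.01% of all genes were. Prf1, perforin, was above 0 in 22.1% of the CONV members (16.3 to 28.9), 35.9% for CONV AsiDNA (29.6 to 42.5) and 36.6% for FLASH (30.3 to 43.3). It was low in CONV in NK cells too (67.2%, 89.3% and 92.9%), so that this difference is not shown to be particular to members. Serpinb9, the inhibitor that protects killer cells from granzyme B, was above 0 in 34.2%, 19.7% and 18.3%, the opposite order. Its log2 ratios of 1.00 and 1.02 lay at the threshold, and they were past 2-fold in only 7 and 8 of 12 alternatives. Gzmb, granzyme B, was above 0 in 20 of 181, 29 of 223 and 37 of 224 members, with overlapping intervals.

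Gzmk, a granzyme of the rule, was above 0 in 49.2% of the CONV members (41.7 to 56.7), 32.3% for CONV AsiDNA (26.2 to 38.9) and 44.6% for FLASH (38.0 to 51.4), given as a description. Gzmm was above 0 in 10 of 181, 46 of 223 and 20 of 224 members (5.52%, 20.6% and 8.93%), high in CONV AsiDNA. Its log2 ratio for CONV against CONV AsiDNA was -1.35, and between -1.64 and -0.46 under the alternatives. Among members without Ccr7 or Lef1, Gzmm was above 0 in 5.09%, 9.57% and 1.98%, where the intervals of CONV and CONV AsiDNA overlapped. Gzma was confined to few members, 17, 21 and 13, but reached up to 136 adjusted counts in 1 cell, so that its level of 926, 961 and 435 adjusted CPM rested on 9.39%, 9.42% and 5.8% of members.

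Of the cytokine and chemokine genes, among them Ccl5 of the rule, 9 of 16 were measured. Only Ccl4 was at least 2-fold lower in CONV AsiDNA than in CONV, against 3.67% of all genes. It was also the only one at least 2-fold lower in CONV AsiDNA than in FLASH, against 1.78%. Only Ccl3 was at least 2-fold lower in CONV than in FLASH, against 3.02%. Ccl3, a related chemokine, was above 0 in 1 of 181 members in CONV and 13 of 224 for FLASH and was listed at 0 for CONV AsiDNA. Ccl4, a chemokine that attracts T cells and monocytes, was above 0 in 37.6% of the CONV members (30.5 to 45.1), 12.1% for CONV AsiDNA (8.13 to 17.1) and 33.5% for FLASH (27.3 to 40.1). Thinned as above, the shares were 24.9%, 7.56% and 21.4%. CONV AsiDNA was low, with a log2 ratio of 2.01 for CONV against CONV AsiDNA and of -1.59 for CONV AsiDNA against FLASH. NK cells of the same libraries held Ccl4 in 55.2%, 72.7% and 79.7%, so CONV AsiDNA was not the low library there. Ifng, interferon gamma, was above 0 in 21.0%, 19.3% and 21.0% of members, and Xcl1, which attracts cross-presenting dendritic cells, in 22.1%, 23.3% and 19.6%.

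Of the inhibitory receptor and exhaustion genes, 11 of 18 were measured. In CONV against FLASH, 4 of 11 were at least 2-fold higher, against 3.36% of all genes, and all 11 ratios lay above 0, with a median of 0.53. In CONV against CONV AsiDNA only Tigit was at least 2-fold higher, 1 of 11 against 3.67% of all genes, and 8 ratios lay above 0 and 3 below, with a median of 0.64. Pdcd1 (PD-1) was above 0 in 26.5% of the CONV members (20.2 to 33.6), 16.1% for CONV AsiDNA (11.6 to 21.6) and 12.1% for FLASH (8.1 to 17.1), so that only CONV and FLASH had intervals apart. Ctla4, the receptor that competes with Cd28, was above 0 in 40.9%, 28.2% and 25.4%, and again only the intervals of CONV and FLASH were apart. Lag3 was above 0 in 8.84%, 10.8% and 8.48%, and Tox, a transcription factor of chronically stimulated cells, in 44.2%, 33.6% and 39.7%, both with overlapping intervals.

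Of 15 measured trafficking genes of 16, 3 were at least 2-fold lower in CONV than in CONV AsiDNA (Ccr7, S1pr4 and Itgb2), against 2.25% of all genes, and 2 than in FLASH (Ccr7 and Itgb2), against 3.02%, and none was 2-fold higher. The ratios went both ways, with 10 of 15 below 0 against CONV AsiDNA and 11 of 15 against FLASH. This list, too, includes Cxcr6, a gene of the rule. Cxcr3, a receptor for interferon-induced chemokines, was above 0 in 27.1%, 45.3% and 42.4% of members. Cxcr4 was highest in CONV, at 60.2%, 43.5% and 42.0%. Itgb2, the beta chain of LFA-1, was above 0 in 2.76%, 22.9% and 30.4%, and its partner chain Itgal in 37.6%, 32.3% and 36.6%.

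FLASH stood apart for a few genes. Hopx, a homeodomain protein of differentiated T cells, was above 0 in 50.3% of the CONV members (42.8 to 57.8), 45.3% for CONV AsiDNA (38.6 to 52.1) and 24.6% for FLASH (19.1 to 30.7). It was low in FLASH in CD4 T cells too (21.8%, 25.6% and 8.97%) and in CD8 T cells outside the rule (3.42%, 13.1% and 0%), so that its low share is not shown to be particular to members. Zeb2, a transcription factor of terminal effector cells, was present in 3, 1 and 30 members (1.66%, 0.448% and 13.4%). Plek, a protein kinase C substrate, was present in 4, 9 and 63 members (2.21%, 4.04% and 28.1%), with log2 ratios of -2.84 for CONV and -2.77 for CONV AsiDNA against FLASH. NK cells held Plek in 62.1%, 79.5% and 85.2% and Zeb2 in 29.3%, 61.3% and 68.7%. B cells held Plek in 27.8%, 26.9% and 33.2%, so the low share of Plek in CONV and CONV AsiDNA was not seen there. They held Zeb2 in 0%, 13.3% and 10.6%, so that Zeb2 was low in CONV in these cells too. Gamma delta T cells went the other way, with Zeb2 in 20.1%, 0% and 0%, highest in CONV.

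**Figure D3:**
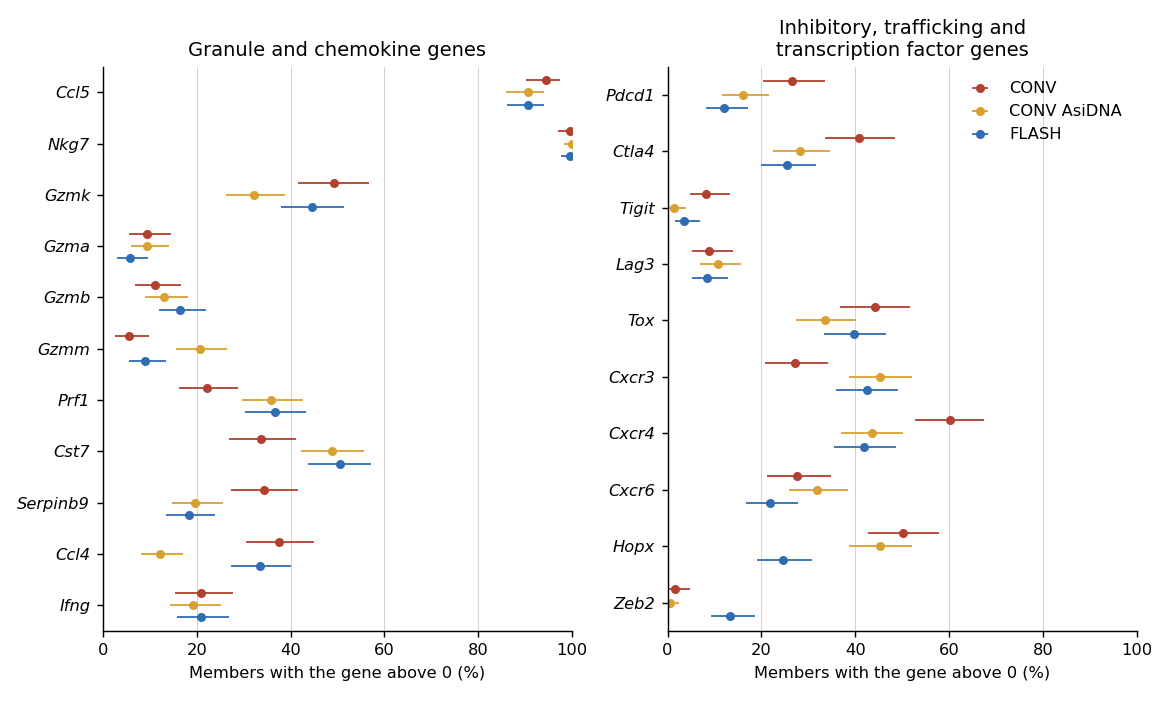
Share of members with each gene above 0 (x axis, percent) in CONV, CONV AsiDNA and FLASH, as points with exact 95% intervals over cells. Ccl4 is low in CONV AsiDNA (12.1%), Hopx low in FLASH (24.6%), and Ifng lies near 20% in all 3 libraries with overlapping intervals.

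Other lists were counted in the same way. Of 23 measured genes of the T cell receptor complex and signalling list none reached 2-fold in any pair, with medians of -0.06, -0.05 and 0.03. None of 11 MHC class I genes did either, with medians of 0.19, 0.22 and 0.06. In each direction of a pair, between 1.01% and 3.67% of all genes were called. The T cell receptor list includes Cd3e, Cd3d, Cd3g, Cd8a and Cd8b1, which belong to the rule, so its count is a description for these genes. Of 14 measured NK receptor and adaptor genes of 20, only Klre1, a lectin-like receptor, was at least 2-fold lower in CONV than in FLASH. Of all genes, 3.02% were, and the list includes Klrk1, a gene of the rule. Among 7 measured p53 targets of 14, Bbc3, the pro-apoptotic BH3 protein PUMA, was above 0 in 18.2%, 5.38% and 13.8% of members. It was the only one to reach 2-fold. It was higher than in CONV AsiDNA both in CONV, against 3.67% of all genes, and in FLASH, against 1.78%. Of 15 interferon-stimulated genes, Isg20, Ifit1 and Ifit3 were at least 2-fold higher in CONV than in CONV AsiDNA, and Isg20, Ifit1, Xaf1 and Rtp4 than in FLASH, against 3.67% and 3.36% of all genes. The list went both ways, with 9 ratios above 0 and 6 below and a median of 0.36 in the former pair, and 11 above and 4 below and a median of 0.35 in the latter. In the same list Ifi203 went the other way, above 0 in 51.9%, 66.4% and 73.7% of members.

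Of 16 measured transcription factors of 22, Zeb2, Prdm1 and Rora were at least 2-fold higher in CONV than in CONV AsiDNA, against 3.67% of all genes, though Zeb2 rested on 3 and 1 cells. The list went both ways, with 9 ratios above 0 and 7 below and a median of 0.17. Against FLASH, Hopx and Rora were at least 2-fold higher (3.36% of all genes were) and Zeb2 at least 2-fold lower (3.02%) in CONV, again with 9 ratios above 0 and 7 below. Rora, a nuclear receptor, was above 0 in 29.3%, 17.0% and 17.0% of members. Prdm1 (BLIMP-1), which drives effector and resident differentiation, was above 0 in 14.9%, 5.38% and 6.7%. Its log2 ratio for CONV against CONV AsiDNA lay between 0.50 and 1.64 under the alternatives. Among members without Ccr7 or Lef1 its shares were 16.95%, 11.7% and 11.9%, with overlapping intervals. Eomes and Tbx21, the T-box factors of killer cells, overlapped between libraries, with Eomes above 0 in 41.4%, 44.8% and 54.9%. Among 14 cell cycle genes only Mki67 reached 2-fold, higher in CONV than in FLASH, where 3.36% of all genes were. In CONV, CONV AsiDNA and FLASH, 5, 6 and 6 members held 3 or more of Mki67, Top2a, Birc5, Cdk1, Ccna2 and Ccnb2.

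Members were then divided by whether they held any of Ccr7 and Lef1, a split made after their values were seen. In CONV 63 members held at least 1 and 118 none, in CONV AsiDNA 129 and 94, and in FLASH 123 and 101. Among members without these genes, Klf2 was above 0 in 21.2% in CONV (14.2 to 29.7), 58.5% for CONV AsiDNA (47.9 to 68.6) and 55.4% for FLASH (45.2 to 65.3). Itga1 was above 0 in 23.7%, 6.38% and 1.98% of them, and Ccl4 in 41.5%, 18.1% and 47.5%. The gaps in these genes were thus present inside the Ccr7 and Lef1 negative members as well. Pdcd1 in these cells was above 0 in 32.2%, 29.8% and 20.8%, and Gzmk in 55.1%, 54.3% and 70.3%, so that CONV AsiDNA lay within the interval of CONV for both.

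**Figure D4:**
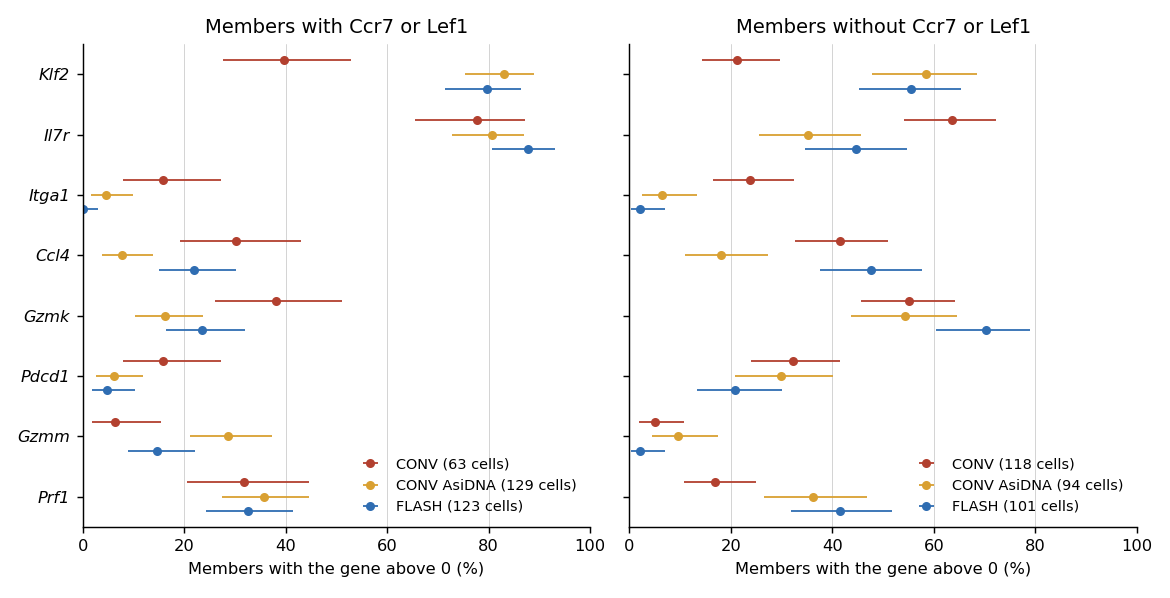
Share of cells with each gene above 0 (x axis, percent) among members with (left) and without (right) Ccr7 or Lef1, as points with exact 95% intervals over cells. Klf2 is low in CONV on both sides (39.7% and 21.2%), while Gzmk and Pdcd1 are higher without these genes in every library.

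Genes were also counted together in the same cell. Members with Ccr7, 20 in CONV and 80 in each of the other libraries, held Ly6c2 in 17, 61 and 60 cells, and 38.5%, 42.7% and 27.8% of members without Ccr7 did. They held Ccl4 in 2, 6 and 12 cells, against 41%, 14.7% and 43.8% of members without Ccr7. Klf2 was above 0 in 10 of the 20 members with Ccr7 in CONV, against 71 of 80 for CONV AsiDNA and 69 of 80 for FLASH.

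Gzmk belongs to the rule, so the members with and without it are set side by side as a description. Members with Gzmk held Tox in 58.4%, 59.7% and 65.0%, against 30.4%, 21.2% and 19.4% of those without Gzmk. They held Ly6c2 less, at 31.5%, 23.6% and 16.0%, against 55.4%, 69.5% and 67.7%. Pdcd1 was above 0 in 28.1%, 33.3% and 23% of members with Gzmk and in 25.0%, 7.95% and 3.23% of those without.

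A small group of members carried Gzma. They held Gzmb in 64.7%, 57.1% and 84.6%, against 5.49%, 8.42% and 12.3% of the members without Gzma. Cx3cr1, a receptor of circulating effector cells, was present in 52.9%, 42.9% and 46.2% of them, and Klrg1 in 35.3%, 42.9% and 30.8%. Il7r was low in them, at 29.4%, 14.3% and 30.8%. The 38 members with Itga1 in CONV held Pdcd1 in 42.1%, against 22.4% of the others, and Eomes in 18.4% against 47.6%, and none held Ccr7. Lef1, though, was above 0 in 10 of these 38 members, at 26.3% against 31.5% of the others. The 12 members with Itga1 in CONV AsiDNA did not follow for Pdcd1, which 1 of them held (8.33% against 16.6%), and 3 of them held Ccr7.

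T cell receptor variable genes were sparse. A Trbv gene was above 0 in 35 of 181 members in CONV, 44 of 223 for CONV AsiDNA and 40 of 224 for FLASH (19.3%, 19.7% and 17.9%), spread over 16, 15 and 16 of 23 genes, and a Trav gene in 19.3%, 22.4% and 22.8%. Trbv12-2, the beta gene with the highest share in any library, was present in 2.21%, 3.59% and 2.68% of members, and Trav16n, the alpha gene with the highest share, in 1.66%, 3.14% and 4.46%. No variable gene stood out in a library at this sparsity. Trgv2, a gamma chain segment, was above 0 in 24.9%, 14.3% and 13.8% of members. Members with Trgv2 held Trac, the alpha chain constant gene, in 75.6%, 96.9% and 100%, near the share in the other members or above it.

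Lymphocytes of the same libraries outside the rule were examined for the same genes. Klf2 was low in CONV in CD8 T cells outside the rule as well (64.9%, 85.4% and 93.2%), in CD4 T cells (27.6%, 71.3% and 67.1%), in NK cells (62.1%, 90.5% and 94.0%) and in B cells (82.8%, 94.9% and 93.7%). It was lowest in CONV in gamma delta T cells too (4.47%, 17.95% and 61.4%), but there the interval of CONV AsiDNA also lay below that of FLASH. Acp5, a phosphatase gene that was among the 5 farthest below CONV AsiDNA in CONV members (2.76%, 39.5% and 38.4%), was likewise low in CONV B cells (2.02%, 38.8% and 36.3%). The low Klf2 and Acp5 of CONV therefore ran through the lymphocytes of that library and are not shown to be particular to the Ccl5 Nkg7 CD8 T cells. In NK cells, though, Acp5 was near 0 in all libraries (0%, 1.98% and 3.85%) with overlapping intervals. For other genes CONV held the same place, lowest or highest, in some neighbouring lymphocytes. In CD4 T cells S1pr1 was above 0 in 47.1%, 69.5% and 64.1%, Tcf7 in 43.2%, 64.6% and 70.9% and Itgb2 in 1.95%, 17.1% and 15.8%, each low in CONV. Not every group followed. Itgb2 was above 0 in 3.42%, 3.85% and 1.21% of CD8 T cells outside the rule, and Tcf7 in 20.7%, 20.2% and 13.2% of NK cells. Ccr7 was lowest in CONV in CD4 T cells (21.0%, 37.2% and 32.05%) and in CD8 T cells outside the rule (69.3%, 80.8% and 91.1%). The same held in B cells (73.05%, 86.2% and 76.6%). Pdcd1 was above 0 in 58.1%, 25.6% and 14.3% of gamma delta T cells, high in CONV. These differences are likewise not shown to be particular to members.

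Itga1 was less frequent elsewhere and was listed at 0 in CD8 T cells outside the rule. It was above 0 in 7.39%, 1.22% and 0.427% of CD4 T cells and in 10.3%, 0.79% and 0% of NK cells. CONV was the highest in both, with intervals apart from those of the other libraries. The high Itga1 of CONV is therefore not shown to be particular to members. Gamma delta T cells held it in 1.68%, 2.56% and 0%, where CONV was not the highest and the intervals overlapped. Bhlhe40 was high in CONV in CD4 T cells (33.9%, 14.6% and 24.8%) and in NK cells (69.0%, 46.6% and 46.2%). Fosb was above 0 in 23%, 6.71% and 8.97% of CD4 T cells and in 39.7%, 43.6% and 20.0% of gamma delta T cells. The comparison groups held 205, 130 and 248 CD8 T cells outside the rule, 257, 164 and 234 CD4 T cells, 179, 78 and 70 gamma delta T cells, 58, 253 and 182 NK cells and 1336, 1597 and 1158 B cells.

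**Figure D5:**
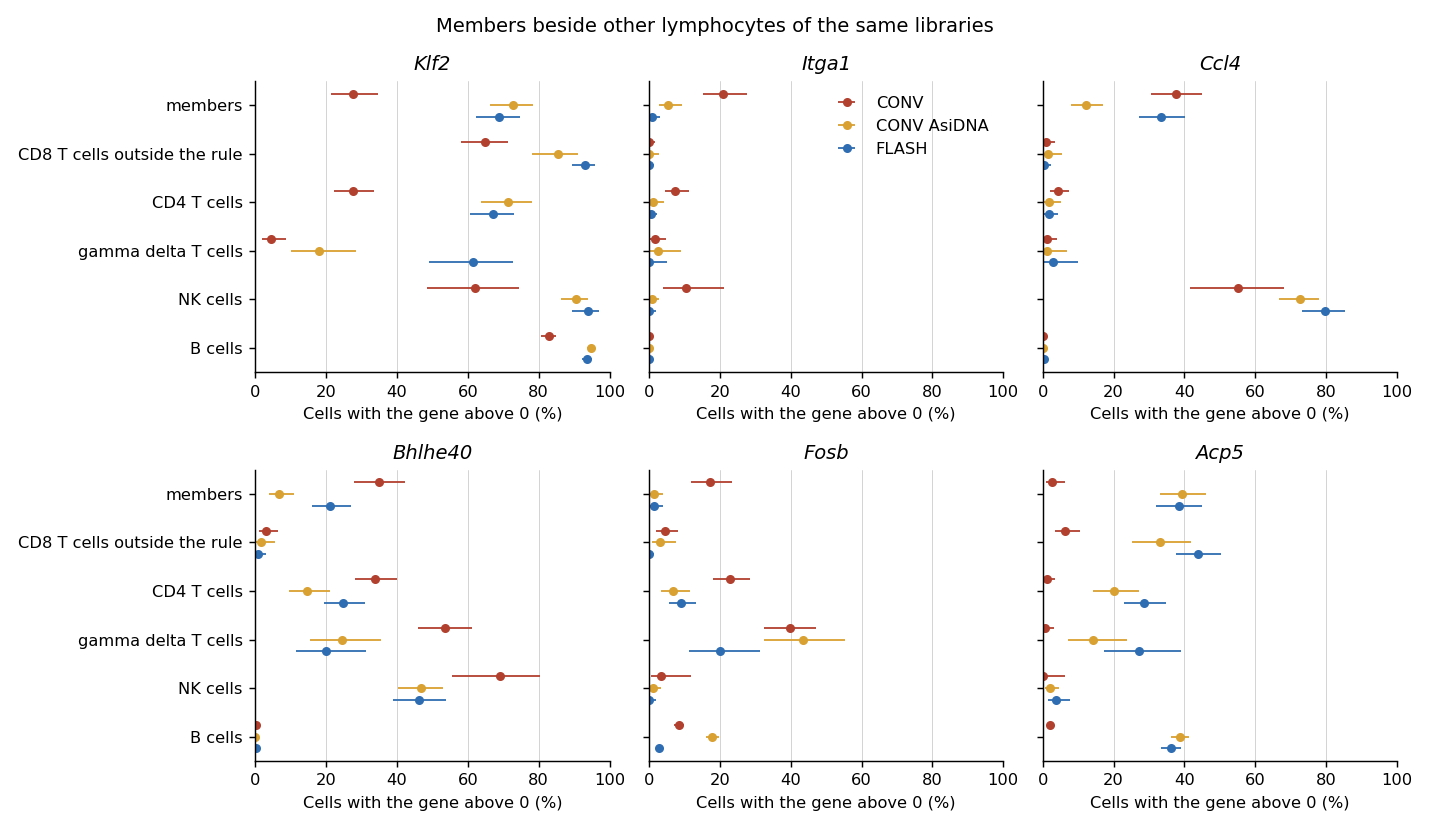
Share of cells with Klf2, Itga1, Ccl4, Bhlhe40, Fosb or Acp5 above 0 (x axis, percent) in members and in 5 other lymphocyte groups of CONV, CONV AsiDNA and FLASH, as points with exact 95% intervals over cells. Klf2 in CONV lies to the left in each group, and Acp5 too except in NK cells, where its intervals overlap, whereas Ccl4 is low in CONV AsiDNA in members (12.1%) and not in NK cells (72.7%).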

How the data were processed

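Lungs were dissociated and profiled with droplet-based single-cell RNA sequencing. The submitters' processing notes name Cell Ranger 6.0.0 and the mouse genome. The authors deposited, per library, natural log values of a whole number raised by 1, over 22954 genes. Converted back, every value lay within 3e-11 of a whole number (adjusted count). The adjustment that gave a narrow range of totals per cell, the filters on cells and any removal of background were not described in the sources read. No count model was therefore used, and a gene listed at 0 gets no limit and no fold.

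Members and comparison cells were selected on genes above 0. No doublet caller was run, and the rule excludes cells with B cell or macrophage genes. An alternative that also left out cells with Cd4, Ncr1, Lyz2, Sftpc, Epcam, Pecam1 or Igkc kept 176, 214 and 218 members. The members, gene lists and alternatives were chosen with earlier results of these data known. Sums over members were expressed as adjusted CPM, with a pseudocount of 10 and a minimum sum of 20. A gene was called at 2-fold or more. Thinned shares are expected values at 1000 adjusted counts per cell, calculated exactly. Genes named are those of the rule, markers, members of 14 lists, for each pair the 5 genes farthest above and below among those above 0 in at least 10% of members of the higher library, and the 5 Trbv and 5 Trav genes present in most members. Gm42418, Trgv2, Ier3, Ly6a and Ptpn6, the genes shown together and the split by Ccr7 and Lef1 were chosen after seeing their values. Some genes of the planned lists are not reported here, and the lists and the Ccr7 or Lef1 subset were recomputed without them. The calculation of ratios was tested on simulated data. Python 3.11.15, numpy 2.4.6, scipy 1.17.1 and pandas 2.3.3 were used. Gene positions are from GENCODE on GRCm38. There are 4 further tables, with identifiers of another organism, that were left out. They hold 12 columns of sample values that matched no sample here, and fold changes and p-values of the authors' own comparisons.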

Additional observations from a re-analysis of the deposited data

How the results depend on the processing

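No paired analysis was possible because each group holds 1 library, and for the same reason no replicate could be left out and depth could not be separated from mouse. The 108 medians of the naive and central memory, tissue residency and immediate early lists under the alternatives moved by less than 1.5-fold, and no named gene that was called at 2-fold changed sign in 6923 log2 ratios. The naive and central memory median stayed between -0.64 and -0.38 for CONV against CONV AsiDNA and between -0.64 and -0.25 against FLASH, and the residency median between 0.57 and 1.00 and between 0.54 and 0.90. In members without Ccr7 and Lef1 the median over all genes moved as well, to -0.10 and -0.14, so that the naive and central memory medians of -0.38 and -0.25 there lay closer to it than with all members. Calls at 2-fold were less stable than signs, and of 12 alternatives they held in 7 and 8 for Serpinb9 in CONV against CONV AsiDNA and FLASH, and in 9 for Gzma, Ctla4 and Hopx in CONV against FLASH. They held in 10 for Gzmm and Prdm1 in CONV against CONV AsiDNA. The ratio of Pdcd1 for CONV against CONV AsiDNA, not called, lay between -0.004 and 0.69 and so took both signs. The alternatives that kept members without Ccr7 and Lef1, and genes above 0 in all 3 libraries, were chosen after seeing the data.

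The share of members was 2.09%, 1.95% and 2.36% of cells in CONV, CONV AsiDNA and FLASH with 3 or more effector genes, 4.46%, 4.53% and 6.0% with 1 or more, and 12.8%, 22.6% and 18.7% of T cells. Counts of genes at 2-fold depended on low genes. With a pseudocount of 1 they were 599 higher and 413 lower in CONV than in CONV AsiDNA, 536 and 502 against FLASH, and 266 and 407 in CONV AsiDNA against FLASH. With a pseudocount of 50 they were 19 and 6, 15 and 14, and 1 and 10. With a minimum sum of 50 they were 103 and 74, 107 and 94, and 17 and 40. In members without Ccr7 and Lef1, 179 genes were higher and 293 lower in CONV than in CONV AsiDNA, while scaling by the median gene ratio gave 184 and 186 and 3 or more effector genes 200 and 212. In members without Ccr7 and Lef1, 135 were higher and 342 lower in CONV than in FLASH, and 118 were higher in CONV AsiDNA than in FLASH.

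Thinned to 1000 adjusted counts, residency genes were present in 11.9% and 2.47% of CONV and CONV AsiDNA members, Ccr7 or Lef1 in 15.2%, 32.3% and 32.2% of CONV, CONV AsiDNA and FLASH members, and inhibitory receptor genes in 15.6%, 10.4% and 8.55%. With 3 or more effector genes, Ccr7 or Lef1 were present in 25.6%, 41.9% and 42.6%, and inhibitory receptor genes in 40.6% (32.2 to 49.5), 34.6% (26.6 to 43.2) and 28.4% (21.3 to 36.4). Over all members these were 37.0% (30.0 to 44.5), 22.9% (17.5 to 28.9) and 20.5% (15.4 to 26.4), so the intervals of CONV and CONV AsiDNA were apart as reported and overlapped with 3 or more effector genes. At 2 or more adjusted counts a Trbv gene was present in 4.42%, 3.14% and 2.23% of members and a Trav gene in 5.53%, 4.04% and 5.8%. The causes of these shifts beyond the construction of each alternative were not tested.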

Other observations

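Some genes named by their distance between libraries belong to no list. Actn1, an actin crosslinking protein, was above 0 in 0.552% of CONV members, 12.1% of CONV AsiDNA members and 0.893% of FLASH members. Il6ra, the interleukin 6 receptor chain, was above 0 in 0.552%, 10.8% and 1.34%, and Cltc, the clathrin heavy chain, in 2.76%, 10.8% and 0.893%. Itpr1, a calcium channel of the endoplasmic reticulum, was above 0 in 21.0%, 6.28% and 2.23%, and Mapkapk2, a kinase downstream of p38, in 10.5%, 0.448% and 0.893%. In B cells of the same libraries Actn1 was above 0 in 0%, 0.0626% and 0%, and Cltc in 14.0%, 24.9% and 23.7%.

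Several genes were listed at 0 in the members of 1 or 2 libraries only, which gives no ratio. Ier3, an immediate early gene, was above 0 in 12.5% of FLASH members and listed at 0 in CONV and CONV AsiDNA. Ly6a (Sca-1) was above 0 in 22.1% and 7.17% of CONV and CONV AsiDNA members and listed at 0 in FLASH, where 45.9% of B cells held it. Ptpn6 (SHP-1), a phosphatase that dampens receptor signals, was listed at 0 in CONV members and above 0 in 10.8% and 10.3% of the others, against 27.8%, 50.0% and 49.3% of B cells.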
